A study of Glycine max with 108 samples.

Results

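This report describes 150 soybean genes that stood higher in flowers and lower in leaves when cadmium was given alone. Soybean plants (Glycine max, cultivar Magellan) were grown from seeds coated with Bradyrhizobium japonicum, the nodule-forming symbiont, and were 31 days old at harvest. RNA-seq was made from leaves and from flowers, and the tissue of 5 to 7 plants went into each biological repeat. Each tissue had 18 treatments with 3 labelled replicates. They were an untreated control, 5 stresses given singly (salinity at 15 mM, acidity at pH 4, water deficit, low phosphate, and cadmium at 300 µM), all pairs and triples of the first 4 stresses, those 4 together (the 4-stress combination), and all 5 together (the 5-stress combination). Plants under water deficit received 30% of the transpirable water, and all others 100%. Phosphate was reduced by 90%. Every plant, controls included, carried the inoculum. Cadmium was therefore present in 2 of the 18 treatments of a tissue, alone and in the 5-stress combination. The pH and the phosphate level are labelled only for the single stresses.

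Members were chosen by their values under cadmium alone. For each gene, the mean log2(FPKM + 1) of the cadmium group was compared with that of the control in both tissues. FPKM is the number of fragments per kilobase of transcript, scaled to the mapped fragments of the library. The score of a gene is the smaller of its rise in flower and its fall in leaf, and the 150 highest scores among 55099 scored genes (57147 features in each table) were taken. Differences from the control and from cadmium alone are thus fixed by the choice and are described without a test. Every contrast tested below is between groups of the other 16 treatments. Control and cadmium-alone libraries still entered the expression minimum and the shared estimate of the spread. Leaving them out of both gave 118 members tested in leaf in place of 119, 132 in flower and 113 in both in place of 114, and the counts of calls stayed close (leaf cadmium on the 4 stresses 61 higher and 18 lower). The gene IDs could not be paired with names, so no role is given to any member and no sequence is shown. Genes are given by their IDs, and the leaf and flower identity of the libraries was not checked against marker genes.

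Cadmium is a toxic metal with no known use in crop plants. It enters roots largely through carriers of iron, zinc, manganese and calcium, is bound by thiol compounds such as glutathione and phytochelatins, and can be stored in vacuoles. What passes the root moves in the xylem to transpiring leaves, while flowers depend more on redistribution through the phloem.

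The libraries differed little in size measures. The FPKM summed to 617269 to 713376 per leaf library and to 611857 to 680482 per flower library. Read totals are not held here, but the depth of a library relative to the others of its tissue, read from the smallest FPKM steps, was 0.871 to 1.23 for leaf libraries and 0.895 to 1.20 for flower libraries. In the deposited tables, 4 columns equalled the mean of the other 2 columns of their group and were left out: leaf control 3, flower acidity 1, flower water deficit 1 and flower 4-stress 1. This leaves 53 leaf and 51 flower libraries, and those 4 groups have n = 2. The labels name separate biological repeats of pooled plants.

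Under cadmium alone the members rose by a median of 0.78 in flower (0.64 to 2.03, log2) and fell by a median of 0.82 on the log2 scale in leaf (0.64 to 2.84). The scores ran from 1.40 down to 0.638, and 9 members scored 1 or more. The threshold cut through a continuous range: GLYMA_04G256200, GLYMA_06G098400 and GLYMA_06G123800 were the last 3 inside (0.638 each), and GLYMA_07G171600 (0.636), GLYMA_19G033900 (0.635) and GLYMA_10G187700 (0.633) were the first outside. In flower, all cadmium libraries lay above all control libraries for 129 members, against 19.1% of all GLYMA rows. In leaf, all cadmium libraries lay below both controls for 132, against 25.5%, and both held for 120, against 7.77%. These counts follow from the choice.

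GLYMA_06G120500 was among the 5 highest scores and had no library at 0. In leaf it measured 22.8 and 19.2 FPKM in the controls, and 9.18, 9.36 and 8.41 FPKM under cadmium. In flower it measured 12.1, 11.1 and 11.9 FPKM in the controls, and 25.5, 26.6 and 25.6 FPKM under cadmium. The groups were apart in both tissues, and the leaf values were above the flower values in controls and below them under cadmium. The tables of the 2 tissues were normalized separately, which limits that side-by-side reading.

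GLYMA_02G213700 measured 8.57 and 7.15 FPKM in leaf controls and 1.39, 1.12 and 1.73 FPKM under cadmium. Its flower values were 18.9, 18.3 and 16.5 FPKM in controls and 36.4, 38.4 and 43.5 FPKM under cadmium. GLYMA_19G181700 measured 8.58, 10.5 and 13.5 FPKM in flower controls and 35.3, 41.3 and 42.5 FPKM under cadmium. Its leaf groups overlapped, with 10.2 and 3.14 FPKM in controls and 1.08, 1.52 and 4.92 FPKM under cadmium.

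The 2 highest scores belonged to weakly expressed genes. GLYMA_18G250800 had leaf controls of 3.49 and 2.94 FPKM and cadmium libraries of 0.24, 0 and 2.24 FPKM. Its flower groups overlapped, with controls of 0.297, 2.19 and 0.882 FPKM and cadmium libraries of 1.31, 4.76 and 9.93 FPKM. GLYMA_06G322400 was at 0 in 22 of the 53 leaf libraries and 12 of the 51 flower libraries. Its flower controls were 0, 1.39 and 0 FPKM and its flower cadmium libraries 2.68, 6.49 and 1.77 FPKM. The leaf controls were also among the deepest leaf libraries (relative depths 1.16 and 1.23), and the part of depth in the low values was not tested. Of the 150 members, 30 were at 0 in some leaf library and 29 in some flower library. The minimum for testing, 1 FPKM on average across a tissue, was reached by 119 members in leaf, 132 in flower, 114 in both and all but 13 in at least one.

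Among the treatments that did not choose them, the leaf level of the members was highest under single stresses other than salinity and in the 5-stress combination. The level of a treatment is given here as the median over all 150 members of the mean log2(FPKM + 1). In leaf it was 2.84 in the control and 1.88 under cadmium. Among the other single stresses, low phosphate was at 2.69, water deficit at 2.64, acidity at 2.53 and salinity at 2.16. Every pair and triple lay between 1.93 and 2.22. The 4-stress combination was at 2.16. With cadmium added to it, the level was 2.54, above that of every pair and triple and about that of acidity alone. The median over all features tested stayed between 2.55 and 2.96 in leaf and was highest in the pair of salinity and acidity, where the members' level was 1.95. Each library is a mixture of cells, so fewer cells of a type and less RNA per cell cannot be told apart.

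In flower the levels were more even. The control, which entered the choice, was at 2.47 and cadmium alone at 3.28. The other single stresses ran from 2.76 (salinity) to 3.05 (water deficit), the pairs from 2.67 (salinity with low phosphate) to 2.99 (acidity with water deficit), and the triples from 2.85 to 3.00. The 4-stress combination stood at 2.91 and the 5-stress combination at 3.17. Every stressed flower group was thus between the control and cadmium alone. Since the choice favours a low flower control and a high leaf control, no difference from these controls is read as a result.

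**Figure D1:**
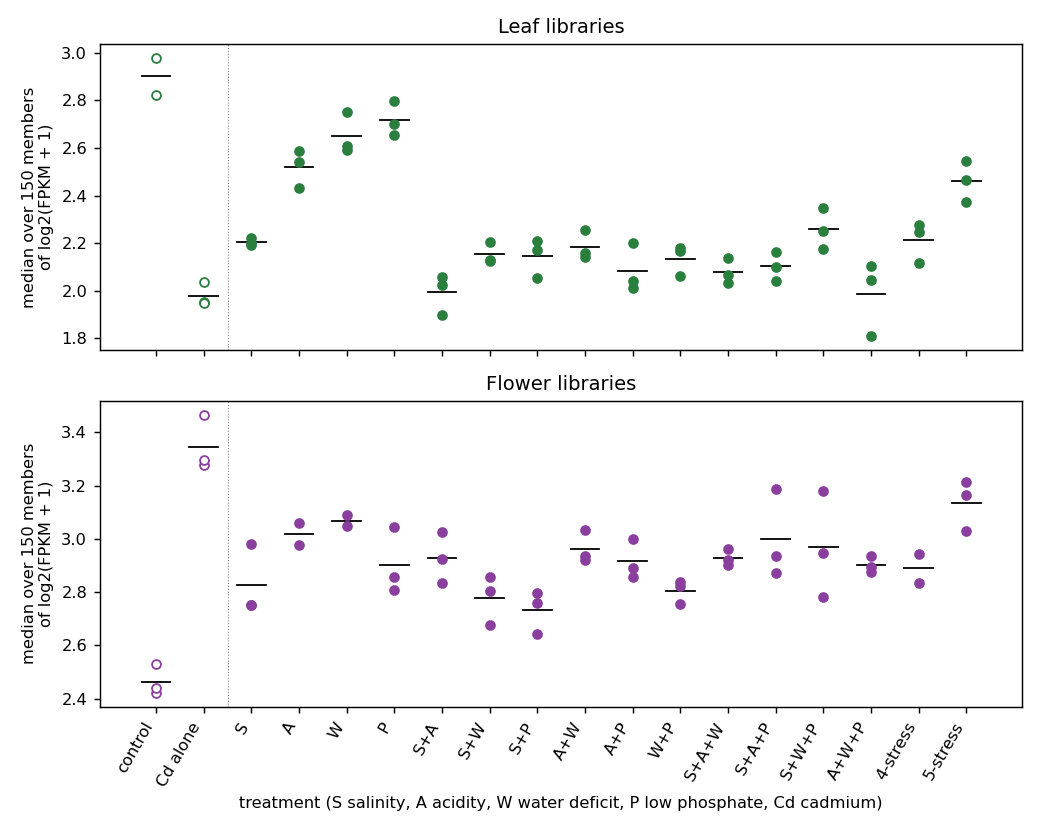
Median log2(FPKM + 1) over the 150 members in each library, by treatment, with leaf above and flower below; bars are group means and open circles mark the libraries that chose the members. In leaf, the 5-stress libraries (2.37 to 2.54) lie above the 4-stress libraries (2.12 to 2.28), and in flower the same order holds (3.03 to 3.21 against 2.84 to 2.94).

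GLYMA_17G116500 had the largest leaf fall under cadmium of all members. It measured 22.2 and 19.6 FPKM in leaf controls and 2.09, 1.75 and 2.37 FPKM under cadmium. Water deficit (20.3, 21.9 and 20.4 FPKM) and low phosphate (20.4, 22.6 and 19.7 FPKM) overlapped the controls. It was at 10.2, 10.8 and 10.8 FPKM under acidity and at 3.01, 2.73 and 3.81 FPKM under salinity. Water deficit paired with low phosphate stood at 9.33 ± 0.335 FPKM (SD, n = 3), and the pair of salinity and acidity at 1.30 ± 0.0489 FPKM (SD, n = 3). The 4-stress libraries read 4.63, 5.11 and 3.96 FPKM, and the 5-stress libraries 21.8, 20.8 and 20.8 FPKM. The last group overlapped the controls and lay above every other combination.

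**Figure D2:**
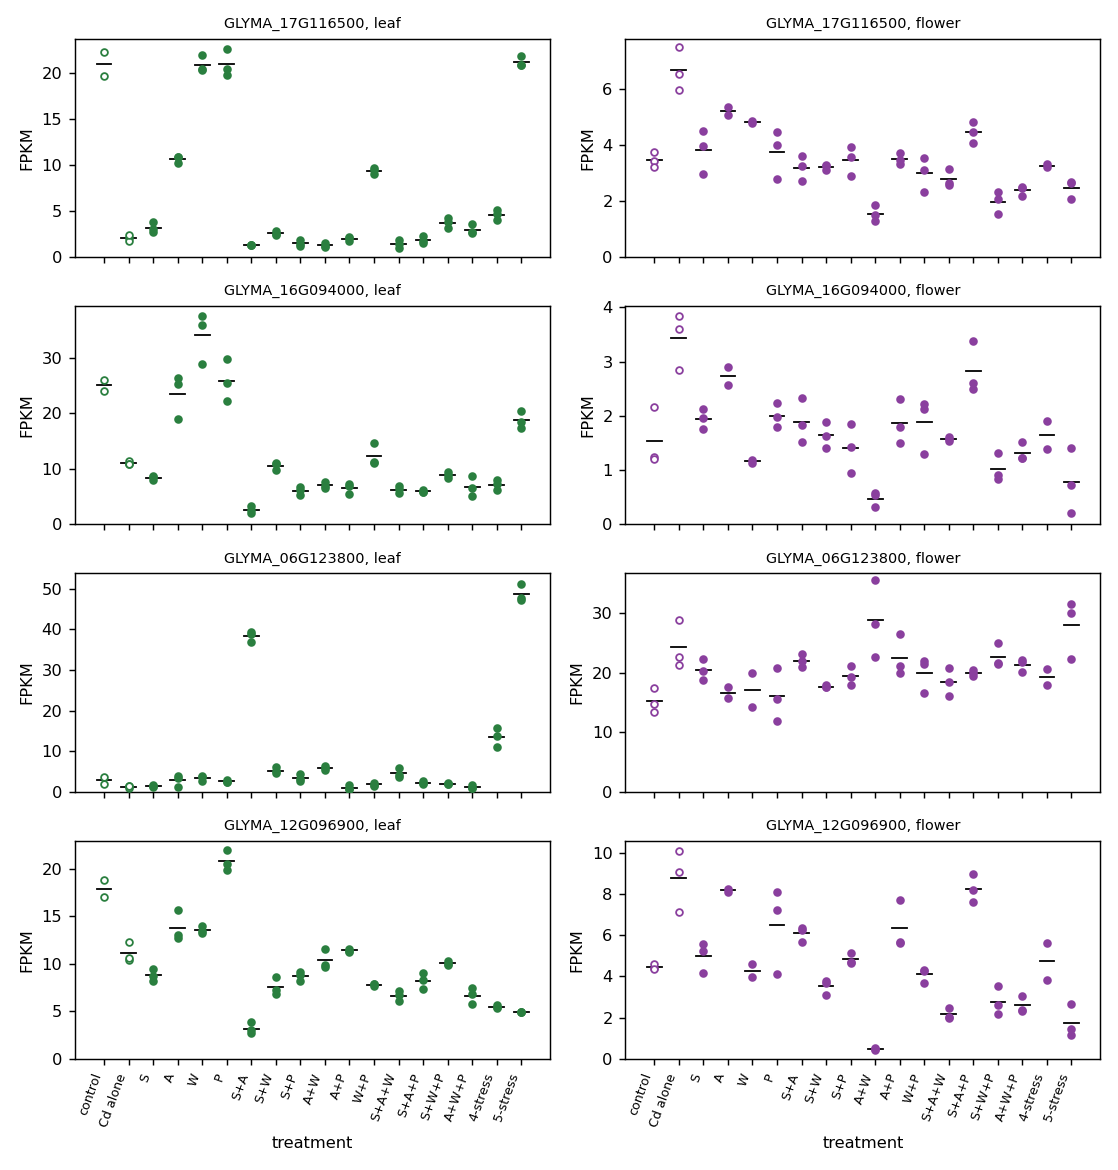
FPKM of GLYMA_17G116500, GLYMA_16G094000, GLYMA_06G123800 and GLYMA_12G096900 in every library of leaf (left) and flower (right), each panel on its own linear axis; bars are group means and open circles mark libraries used to choose the members. GLYMA_17G116500 and GLYMA_16G094000 are lower in every leaf combination of the 4 stresses than with all 5. Of these combinations, water deficit with low phosphate is the highest for both (9.63, 8.97 and 9.39 FPKM, and 11.0, 11.2 and 14.7 FPKM). GLYMA_06G123800 is high in leaf in the pair of salinity and acidity (38.4 FPKM) and the 5-stress combination (48.8 FPKM).

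Averaged over stressed backgrounds, salinity and acidity each lowered most of the members in leaf. For each stress, the 7 treatments that held it together with others were compared with the same 7 backgrounds without it, so that neither control nor cadmium libraries entered. By limma's moderated test with Benjamini-Hochberg adjustment over all features (adjusted p under 0.05), salinity lowered 85 and raised 8 of the 119 members tested. Over all features, 29.7% were lower and 40.1% higher. Acidity lowered 89 members and raised 5, against 29.0% and 33.9% of all features. The median member fell by 0.29 under salinity and by 0.26 under acidity on the log2 scale, where the medians of all features were 0.04 and 0.01. Over all members, the level fell with salinity on acidity (2.53 to 1.95), water deficit (2.64 to 2.04) and low phosphate (2.69 to 2.12). It changed little on acidity with water deficit (2.13 to 2.03) or low phosphate (2.08 to 2.02). It rose on water deficit with low phosphate (2.07 to 2.22) and on those with acidity (1.93 to 2.16). With acidity the level was lower on every background, least on salinity with water deficit (2.04 to 2.03). Single backgrounds were not tested. Of the 31 members under the expression minimum, 4 were called lower for salinity and 8 for acidity when the minimum was dropped, and 0 were called higher. The share of all features called in that fit is not given, so these counts are not read as a result.

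GLYMA_17G116500 fell under both stresses (−1.25, SE 0.05, limma adjusted p = 5.19e-26 for salinity; −1.22, SE 0.05, adjusted p = 2.93e-25 for acidity). GLYMA_01G018000 fell under acidity by 1.03 (SE 0.06, limma adjusted p = 9.05e-19). It measured 44.7, 30.1 and 32.3 FPKM under water deficit and 5.07, 3.75 and 3.58 FPKM when acidity was added, with no overlap. These effects are averages over backgrounds. Of the 7 backgrounds, GLYMA_17G116500 was lower without overlap in 4 and higher in 1 with salinity, and lower in 5 and higher in 0 with acidity, and GLYMA_01G018000 was lower in 4 and higher in 1 with acidity. GLYMA_19G181700 fell under salinity by 1.10 (SE 0.18, limma adjusted p = 2.24e-06), and was at 0 in 13 of the 53 leaf libraries. With a pseudocount of 0.1 in place of 1 its fall became −2.18.

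Among the treatments without cadmium, the named members that rose were highest in leaf where salinity and acidity were paired. GLYMA_07G251300 rose with salinity by 1.13 (SE 0.05, limma adjusted p = 7.53e-23) and GLYMA_06G123800 by 1.07 (SE 0.08, adjusted p = 1.76e-15). Acidity raised GLYMA_06G123800 by 0.72 (SE 0.08, limma adjusted p = 1.54e-10) and GLYMA_20G241700 by 0.65 (SE 0.05, adjusted p = 3.93e-15). GLYMA_06G123800 measured 1.21, 1.33 and 1.51 FPKM under salinity, 3.35, 1.22 and 3.84 FPKM under acidity, and 39.5, 36.8 and 38.9 FPKM under both. Without that pair, the acidity effect on GLYMA_06G123800 was 0.17 (limma adjusted p = 0.0957), its salinity effect 0.67, and the acidity effect on GLYMA_20G241700 0.32.

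Water deficit and low phosphate had smaller effects on the members, and these depended on the scaling. Water deficit lowered 52 and raised 16 of the 119 members, against 30.9% and 16.7% of all features. Low phosphate lowered 49 and raised 3, against 25.1% and 10.6%. With each library rescaled to the median ratio over features, water deficit lowered 34 and raised 20 (17.7% and 26.5% of all features), and low phosphate lowered 34 and raised 3 (12.5% and 16.9%). On the deposited scale the median member changed by −0.10 under each, where all features stood at −0.04.

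GLYMA_04G190300 fell under water deficit by 0.55 (SE 0.04, limma adjusted p = 9.28e-14), and GLYMA_05G150400 by 0.61 (SE 0.09, adjusted p = 3.36e-07). GLYMA_04G190300 measured 5.22, 5.33 and 4.00 FPKM under low phosphate and 1.83, 1.84 and 2.01 FPKM when water deficit was added. Under acidity it went the other way, from 3.85, 5.02 and 5.63 FPKM to 8.25, 8.46 and 7.67 FPKM. Both genes were lower without overlap in 5 of the 7 backgrounds, higher in 1 (acidity alone) and overlapping in 1. GLYMA_07G251300 rose by 0.32 (SE 0.05, limma adjusted p = 1.18e-06) and GLYMA_11G082300 by 0.31 (SE 0.06, adjusted p = 9.39e-05). Of the 7 backgrounds, GLYMA_07G251300 was higher without overlap in 4 and lower in 1, and GLYMA_11G082300 was higher in 3 and lower in 2. Without the 4-stress combination, the effect on GLYMA_07G251300 was 0.13 (limma adjusted p = 0.0491), and 6 members in place of 16 were raised. Without replicate 1 or 2 of every group, 9 or 10 were raised.

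Low phosphate lowered GLYMA_08G099000 by 0.88 (SE 0.09, limma adjusted p = 3.89e-10) and GLYMA_06G123800 by 0.82 (SE 0.08, adjusted p = 1.04e-10). GLYMA_08G099000 measured 51.4, 36.4 and 53.7 FPKM under acidity and 5.39, 4.52 and 8.67 FPKM when low phosphate was added. On acidity with water deficit it was higher with low phosphate, from 15.5, 8.51 and 15.8 FPKM to 27.8, 26.9 and 26.4 FPKM. It was lower without overlap in 5 of the 7 backgrounds and higher in 1, and GLYMA_06G123800 was lower in 4 and higher in 2. GLYMA_07G272600 (0.25, limma adjusted p = 0.00255) and GLYMA_20G233100 (0.22, adjusted p = 0.0111) were called higher. Both calls were lost without replicate 3 of every group (0.22 with adjusted p = 0.0658, and 0.17 with adjusted p = 0.119). Without replicate 1, GLYMA_07G272600 was at 0.17 (limma adjusted p = 0.171), and without replicate 2 GLYMA_20G233100 was at 0.19 (adjusted p = 0.109).

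**Figure D3:**
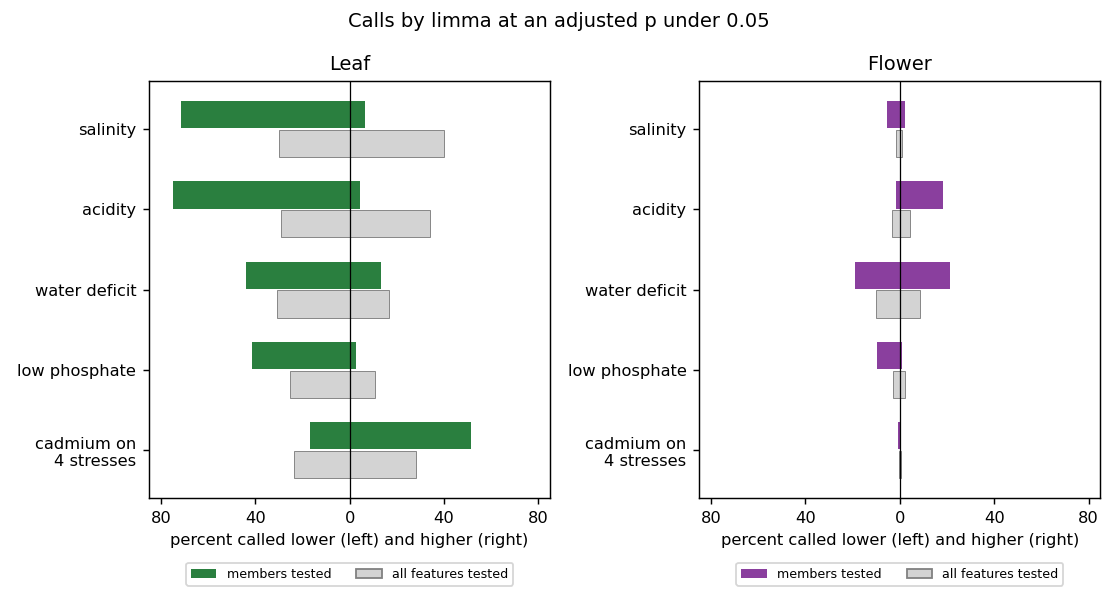
Percent of members (coloured) and of all features tested (grey) called lower (left of 0) and higher (right of 0) by limma at an adjusted p under 0.05, for each stress added to stressed backgrounds, in leaf and flower. In leaf, salinity and acidity lowered 71.4% and 74.8% of members tested, while cadmium on top of the 4 stresses raised 51.3%.

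Leaf pairs of stresses lay below the mean of their single stresses for most members. The pair of salinity and acidity was lower than the mean of salinity alone and acidity alone for 61 of the 119 members and higher for 14. Over all features tested, the shares were 29.5% lower and 42.7% higher. The median member stood 0.34 below its parts (−0.34 log2), and the median feature 0.13 above. The other 5 pairs, added after the data were seen, gave the same order. Acidity with water deficit was lower for 80 and higher for 6 (20.6% and 36.2% of all features), and acidity with low phosphate lower for 77 and higher for 5 (22.0% and 31.0%). Salinity with water deficit was lower for 64 and higher for 5 (18.6% and 21.7%), and salinity with low phosphate lower for 63 and higher for 4 (17.9% and 28.8%).

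Water deficit with low phosphate was lower for 83 and higher for 1 (33.5% and 18.3% of all features). The level of all 150 members was 2.07 in the pair, against 2.64 and 2.69 in its single stresses. Rescaling moved the median of all features in this pair from −0.11 to 0.02 and gave 65 members lower and 4 higher (19.5% and 27.2%). It left acidity with water deficit at 82 lower and 6 higher (27.9% and 29.3%). Without replicate 1 of every group, salinity with low phosphate was higher for 2, salinity with water deficit for 3 and acidity with low phosphate for 3. Without replicate 3, water deficit with low phosphate was higher for 2.

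In the pair of salinity and acidity, GLYMA_16G094000 was lowest against its parts (−2.07, SE 0.12, limma adjusted p = 2.36e-19). It measured 7.98, 8.70 and 8.44 FPKM under salinity, 25.3, 26.3 and 19.0 FPKM under acidity, and 3.21, 2.04 and 2.63 FPKM under both. GLYMA_17G116500 stood at −1.60 (SE 0.10, limma adjusted p = 2.72e-17). GLYMA_06G123800 went the other way by 3.76 (SE 0.18, limma adjusted p = 1.64e-21), and GLYMA_20G241700 by 2.52 (SE 0.11, adjusted p = 6.33e-23). GLYMA_20G241700 measured 5.84, 7.52 and 7.57 FPKM under salinity, 9.06, 7.52 and 7.32 FPKM under acidity, and 51.9, 41.9 and 48.9 FPKM under both.

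Adding cadmium to the other 4 stresses raised more members in leaf than it lowered. Of 119 members tested, 61 (51.3%) were higher in the 5-stress than in the 4-stress combination and 20 (16.8%) were lower, by limma at an adjusted p under 0.05. Over all features, 28.0% were higher and 23.5% lower. The median member stood at 0.43, and the median feature at 0.05. Cadmium alone had gone with lower leaf values for every member, by the choice, while on the 4-stress background the called members were mostly higher. Over all 150 members, including those below the minimum, the 5-stress mean was above the 4-stress mean in 99 and below it in 49, with a median of 0.40 and quartiles of −0.20 and 0.79. The libraries of the groups did not overlap in 68 that were higher and 25 that were lower. Shares over all features were not computed for these counts over all 150, so they only describe the members.

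Rescaling to the median ratio gave 55 members higher and 21 lower (21.9% and 27.4% of all features). When a replicate number or 1 library of the groups was left out, 54 to 61 were higher and 15 to 19 lower. The relative depths were 0.946 to 1.02 in the 4-stress and 0.946 to 0.973 in the 5-stress leaf libraries.

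GLYMA_17G116500, already given, rose by 2.00 (SE 0.12, limma adjusted p = 1.46e-17) and had no overlap between the groups. GLYMA_06G123800 rose by 1.81 (SE 0.21, limma adjusted p = 1.65e-09), from 10.9, 13.7 and 15.6 FPKM to 47.8, 47.2 and 51.3 FPKM. Its leaf controls were 1.82 and 3.70 FPKM, and cadmium alone gave 0.876, 1.37 and 1.41 FPKM, so its 5-stress level was far above both. GLYMA_12G035000 fell by 1.43 (SE 0.15, limma adjusted p = 9.66e-11), from 4.29, 4.41 and 4.95 FPKM to 2.00, 0.796 and 0.613 FPKM. GLYMA_17G127600 fell by 1.57 (SE 0.31, limma adjusted p = 5.04e-05), from 5.46, 13.0 and 9.82 FPKM to 2.97, 0.941 and 3.89 FPKM. Without replicate 2 of every group, the fall of GLYMA_17G127600 was −0.92 (limma adjusted p = 0.0402).

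Some of the highest scores moved with the majority. GLYMA_02G213700 went from 2.47, 1.82 and 2.90 FPKM in the 4-stress leaves to 9.72, 7.27 and 9.03 FPKM in the 5-stress leaves, where its controls were 8.57 and 7.15 FPKM. GLYMA_06G120500 went from 13.5, 15.0 and 13.9 FPKM to 21.3, 24.7 and 24.4 FPKM, with controls of 22.8 and 19.2 FPKM. GLYMA_15G074200 went from 7.58, 7.44 and 7.37 FPKM to 23.0, 25.7 and 24.2 FPKM, above its controls of 12.7 and 13.3 FPKM. In each of these the 5-stress libraries lay above all 4-stress libraries.

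**Figure D4:**
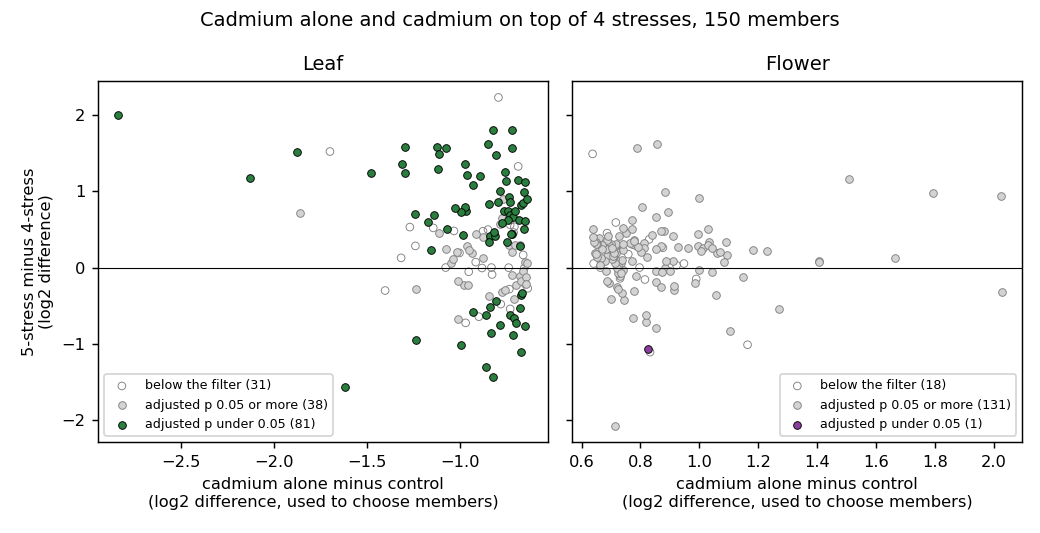
For each of the 150 members, the log2 difference of cadmium alone from the control (horizontal, used to choose the members) and of the 5-stress from the 4-stress combination (vertical, not used), in leaf and flower; fill marks the limma call and open points were below the expression minimum. In leaf, 99 points lie above 0 on the vertical axis; in flower, 106 do, none of them called, and the 1 called member lies below 0 (−1.07).

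In flower, cadmium on top of the 4 stresses left almost all members uncalled. Of 132 tested, 0 were called higher and 1 lower, against 0.302% and 0.201% of all features. At an unadjusted p under 0.05 by limma, 37 members (28.0%) passed, against 12.6% of all features. The median member stood at 0.21, against 0.03 for all features. Over all 150 members the 5-stress mean was above the 4-stress mean in 106 and below it in 42, counts not made over all features. The flower counts depended on single libraries: without the 5-stress replicate 1, 7 members were higher and 6 lower, and without replicate 1 of every group 12 were higher and 7 lower. The shares of all features called in these fits are not given here. For these fits, a change in the counts of members thus cannot be told from one over all features. The 4-stress group has only n = 2 in flower.

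The called member was GLYMA_12G096900. It fell by 1.07 (SE 0.18, limma adjusted p = 0.00208), from 3.85 and 5.62 FPKM to 2.64, 1.18 and 1.47 FPKM, without overlap. The call was lost in a fit on the 2 groups alone (limma adjusted p = 0.525). It was also lost without the 4-stress replicate 3 (−0.85) and without replicate 2 (−1.14) or replicate 3 (−0.78) of every group. Each of those fits leaves 1 library in the flower 4-stress group. GLYMA_02G213700 measured 25.6 and 28.8 FPKM in the 4-stress flowers and 37.7, 27.0 and 28.2 FPKM in the 5-stress flowers, which overlapped. GLYMA_06G120500, with 17.9 and 17.5 FPKM against 21.6, 19.1 and 15.7 FPKM, overlapped too.

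Among the 4 other stresses in flower, acidity called members mostly higher and water deficit called them in both directions. Acidity raised 24 and lowered 2 of 132 members, against 4.47% and 3.30% of all features. Water deficit raised 28 and lowered 25, against 8.64% and 10.0%. Salinity raised 3 and lowered 7 (1.02% and 1.67% of all features), and low phosphate raised 1 and lowered 13 (2.22% and 2.75%). The flower and leaf effects of these stresses were not tested against each other. Fewer were raised by acidity without replicate 2 or replicate 3 of every group, fits that leave 1 library in some groups. The share of all features called in these fits is not given, so a drop in members cannot be told from a general one. The cause was not tested. Without replicate 2 or 3, 0 were lowered by acidity or salinity, 0 or 1 raised by salinity, and 3 or 4 lowered by low phosphate. Low phosphate raised 0 without replicate 1, 2 or 3.

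GLYMA_07G251300 rose in flower under acidity by 0.48 (SE 0.05, limma adjusted p = 4.99e-09). It measured 41.9 and 41.8 FPKM under water deficit and 62.5, 61.9 and 63.3 FPKM with acidity added. It was higher without overlap in 5 of the 7 backgrounds and lower in 1, the triple of the other stresses. GLYMA_03G219000 was called higher (0.31, limma adjusted p = 0.00410), and GLYMA_20G241700 (−0.22, adjusted p = 0.000609) and GLYMA_18G034600 (−0.20, adjusted p = 0.0102) lower. These 3 calls were lost without replicate 2 of every group (limma adjusted p = 0.0927, 0.171 and 0.214) and without replicate 3 (adjusted p = 0.214, 0.0856 and 0.158).

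Water deficit lowered GLYMA_12G096900 in flower by 1.01 (SE 0.06, limma adjusted p = 5.10e-15). It was at 8.10 and 8.26 FPKM under acidity and at 0.453, 0.532 and 0.455 FPKM under acidity with water deficit. GLYMA_12G085500 fell by 0.75 (SE 0.06, limma adjusted p = 6.39e-12), with 52.2 and 60.4 FPKM under acidity and 15.0, 15.5 and 12.6 FPKM with water deficit added. Each was lower without overlap in 6 of the 7 backgrounds. GLYMA_01G018000 rose by 0.82 (SE 0.09, limma adjusted p = 2.53e-09), from 17.8 and 16.3 FPKM under acidity to 45.3, 29.4 and 45.8 FPKM with water deficit added. GLYMA_11G082300 rose by 0.59 (SE 0.05, limma adjusted p = 3.87e-11), from 22.5 and 19.3 FPKM to 29.7, 27.7 and 28.3 FPKM in the same groups. Each was higher without overlap in all 7 backgrounds.

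For low phosphate in flower, GLYMA_08G294000 fell by 0.41 (SE 0.04, limma adjusted p = 2.65e-08). It measured 26.4 and 23.5 FPKM under water deficit and 19.8, 14.6 and 15.8 FPKM with low phosphate added. It was lower without overlap in 4 of the 7 backgrounds and higher in 1. GLYMA_13G315400 was called lower (−0.40, limma adjusted p = 0.000357), a call lost without replicate 2 of every group (adjusted p = 0.116) or replicate 3 (adjusted p = 0.0517). GLYMA_12G096900 was called higher (0.26, limma adjusted p = 0.0130), a call lost without replicate 1, 2 or 3 (adjusted p = 0.0632, 0.149 and 0.189).

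For salinity in flower, GLYMA_08G027000 (0.23, limma adjusted p = 6.64e-05) and GLYMA_12G042400 (0.21, adjusted p = 0.000185) were called higher. GLYMA_09G282900 (−0.25, limma adjusted p = 0.0165) and GLYMA_02G278300 (−0.25, adjusted p = 0.0217) were called lower. Without replicate 2 of every group all 4 calls were lost (limma adjusted p = 0.0520, 0.0685, 0.368 and 0.292). Without replicate 3, GLYMA_08G027000, GLYMA_09G282900 and GLYMA_02G278300 were lost (limma adjusted p = 0.106, 0.175 and 0.462), and without replicate 1 GLYMA_09G282900 (adjusted p = 0.0607).

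On the 4-stress background, the difference between flower and leaf in the effect of cadmium more often ran against the direction that chose the members than with it. The test of the flower effect minus the leaf effect, in 1 model of both tissues, covered the 114 members that passed the minimum in both. It was below 0 for 38 and above 0 for 16, against 13.6% and 15.4% of all features. The median member stood at −0.27 and the median feature at −0.02. Among the 38 below 0, 36 had been called higher in leaf and 0 lower, and their flower estimates were above 0 in 24 and below 0 in 14. Among the 16 above 0, which kept the order seen under cadmium alone, 15 had been called lower in leaf, and the flower estimate was above 0 in all 16. Without replicate 2 of every group, which leaves 1 flower 4-stress library, fewer were called above 0.

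GLYMA_17G116500 had the most negative difference (−2.30, SE 0.19, limma adjusted p = 4.60e-17). Its flower values were 3.22 and 3.32 FPKM in the 4-stress and 2.66, 2.08 and 2.69 FPKM in the 5-stress libraries, against 3.75, 3.43 and 3.23 FPKM in controls and 5.97, 6.56 and 7.50 FPKM under cadmium alone. GLYMA_16G094000 followed (−1.91, SE 0.23, limma adjusted p = 3.69e-10). It went from 8.01, 6.13 and 7.16 FPKM to 20.3, 18.4 and 17.4 FPKM in leaf, and from 1.90 and 1.38 FPKM to 1.41, 0.209 and 0.724 FPKM in flower, where the groups overlapped.

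The most positive difference was that of GLYMA_17G127600 (1.82, SE 0.51, limma adjusted p = 0.00399). Its flower libraries read 16.3 and 19.4 FPKM with 4 stresses and 11.3, 35.0 and 24.4 FPKM with 5, which overlapped. The call was lost in a fit on the 4 groups alone (limma adjusted p = 0.122). It was also lost without replicate 2 of every group (0.72), which leaves 1 flower 4-stress library. GLYMA_08G099000 was next (1.79, SE 0.48, limma adjusted p = 0.00272). In flower it measured 1.16 and 0.927 FPKM with 4 stresses and 4.05, 5.05 and 6.16 FPKM with 5, and in leaf 21.4, 19.6 and 31.9 FPKM with 4 and 19.6, 26.2 and 15.8 FPKM with 5. The flower groups were apart and the leaf groups overlapped. Without replicate 3 of every group, which also leaves 1 flower 4-stress library, the difference was 1.22 and the call was lost.

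Over the 15 stressed treatments without cadmium, water deficit alone was the leaf treatment with the highest level for 49 of the 119 members tested (41.2%, against 12.2% of all features), and low phosphate alone for 38 (31.9%, against 15.4%). The pair of salinity and acidity gave the lowest leaf level for 36 (30.3%, against 20.1%) and the highest for 7 (5.88%, against 37.3%). In flower, salinity with low phosphate gave the lowest level for 43 of 132 (32.6%, against 9.48%). Acidity alone gave the highest flower level for 20 (15.2%, against 6.76%). Acidity with water deficit gave it for 23 (17.4%), a share near that of all features (16.9%).

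Across the libraries that did not choose them, the members varied together to a moderate degree in leaf. The mean Pearson correlation between pairs of members was 0.28 over 48 leaf libraries, against 0.058 between all features, and 75.1% of member pairs had a positive value. In flower it was 0.12 over 45 libraries, against 0.0082, with 67.3% positive. The libraries share treatments and the table's normalization, so these are descriptions. By the chromosome number in their IDs, members came from all 20 chromosomes, with 4 to 16 on each. The most, 16, carried the number 13 (10.7%, against 6.71% of all GLYMA rows). No 2 members were adjacent in ID order, and 2 pairs lay within 10 steps of each other.

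**Figure D5:**
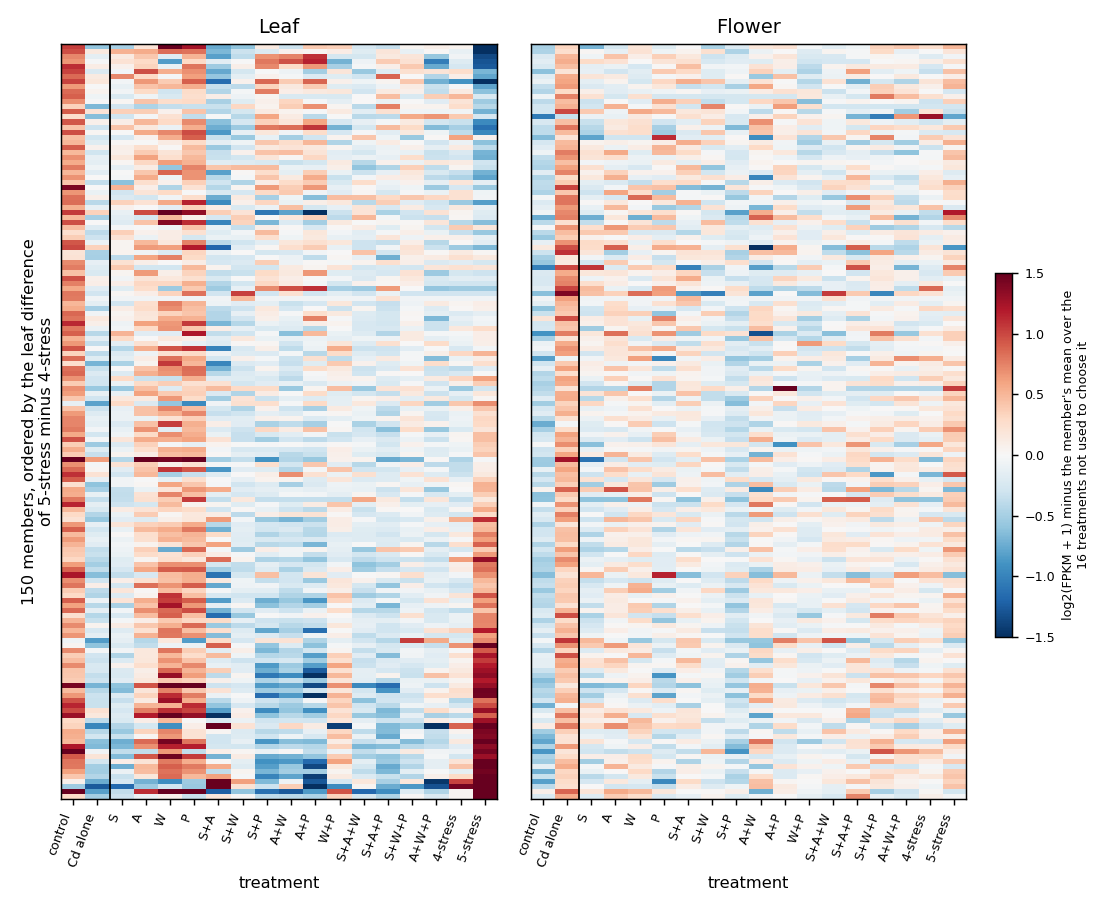
Each row is 1 of the 150 members, ordered by the leaf difference between the 5-stress and 4-stress combinations, and each column a treatment of leaf or flower; colour gives the group mean of log2(FPKM + 1) minus the member's mean over the 16 treatments to the right of the black line. In leaf, water deficit and low phosphate alone are high in most rows, and the 5-stress column runs from low at the top to high at the bottom. The difference that orders the rows, which is not the colour, runs from −1.57 to 2.22. The member at 2.22 was below the leaf expression minimum.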

How the data were processed

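RNA-seq libraries of soybean leaves and flowers were analysed from 1 table of FPKM per tissue, as the authors deposited them. HISAT2 2.2.1 is named per the submitters' processing notes; the quantifier, genome build and annotation are not given in the sources used here. Members and tests were chosen with earlier results of these data known. Of 108 columns, 4 equalled the mean of the other 2 of their group at 99.978% or more of features (relative tolerance 1e-05; at most 0.146% in other columns) and were left out. Rows with both 0 and at least 10 FPKM within a group (798 GLYMA rows) were dropped before scoring. limma 3.58.1 (R 4.3.3; trend and robust) was fitted to log2(FPKM + 1) of all groups of a tissue, for features averaging 1 FPKM or more, with Benjamini-Hochberg adjustment over all features tested; fold changes on this scale understate those of low genes. On simulated data with 200 genes of 27337 changed by 2 (log2), 96.5% to 100% were recovered in the 17 contrasts, with at most 7.08% false calls. That change is far above the median member effects, such as 0.21 for flower cadmium on the 4 stresses. Recovery of smaller effects was not tested. The rule named the highest scores, the genes beside the threshold and the largest called rises and falls per comparison, cut to 2 each because no ID (0) matched the RefSeq gene table. Keyword lists and tissue markers planned by name were therefore not used. Members named beyond these were chosen after their values were seen.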

Additional observations from a re-analysis of the deposited data

Results flagged for a closer look

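The effect of cadmium on top of the 4 stresses differed between flower and leaf for some members, by the test of the difference itself (limma, adjusted p under 0.05). The difference was below 0 for 38 of the 114 members tested (33.3%, against 13.6% of all features). It was above 0 for 16 (14.0%, against 15.4%), a share near that of all features. The named members with the most negative difference were GLYMA_17G116500 (−2.30 log2) and GLYMA_16G094000 (−1.91). Those with the most positive were GLYMA_17G127600 (1.82) and GLYMA_08G099000 (1.79). Both of these lost the call when 1 replicate number was left out, which left 1 flower 4-stress library.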

How the results depend on the processing

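No named gene's effect changed sign under the alternatives run. The balance of members called in flower did turn, though the shares of all features called in the same fits are not given. Cadmium on 4 stresses (0 raised, 1 lowered) had more raised than lowered without replicate 1 (12 and 7) or with the averaged columns counted. Salinity (3 raised, 7 lowered) had 1 raised and 0 lowered without replicate 3. Of 433 values of counts, 374 stayed within 1.5 times the main count and 59 moved; of 569 values for named genes, 538 kept their call and 31 lost it. With a pseudocount of 0.1 in the score, 46 of the 150 members were shared (137 with rescaled libraries, 148 with leaf control 3 kept). Counts below are of members, without the number tested or the share of all features called. A minimum of 5 FPKM leaves fewer members to test, so a lower count there does not by itself mean a smaller share. With a minimum of 5 FPKM, low phosphate raised 0 in flower and 1 in leaf, the difference was above 0 for 6, leaf acidity lowered 59, leaf water deficit lowered 33, leaf cadmium on 4 stresses lowered 8, and salinity with acidity was lower for 40. At that minimum, acidity with low phosphate was higher for 1, acidity with water deficit for 3, salinity with low phosphate for 2 and salinity with water deficit for 3; with no minimum, water deficit with low phosphate was higher for 2. With rescaled libraries, flower acidity lowered 4, flower cadmium lowered 2, leaf salinity raised 5, leaf water deficit lowered 34, and water deficit with low phosphate was higher for 4. With the averaged columns counted, flower acidity lowered 5, flower low phosphate raised 2, and flower cadmium raised 6 and lowered 3. In fits on the groups compared alone, flower cadmium lowered 0 and salinity with low phosphate was higher for 7. Without the pair of salinity and acidity, leaf acidity raised 2; without the 4-stress combination, leaf acidity raised 3, salinity 5 and water deficit 6. With no control or cadmium-alone library in the minimum or the fit, water deficit with low phosphate was higher for 2 and every other count stayed within 1.5 times. These 3 alternatives were chosen after seeing the data.

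Leaving out a replicate number or a library gave these ranges. They count members, without the number tested or the share of all features called in the same fits. In flower, leaving out replicate 2 or 3 leaves 1 library in the acidity, water deficit and 4-stress groups. The ranges are thus not read as results about the members. In flower, acidity raised 1 to 22 and lowered 0 to 3, low phosphate raised 0 to 0 and lowered 3 to 11, salinity raised 0 to 3 and lowered 0 to 6, and cadmium raised 0 to 12 and lowered 0 to 7. The difference was above 0 for 10 to 16. In leaf, salinity raised 5 to 7, water deficit 9 to 11 and low phosphate 1 to 2. Acidity with low phosphate was higher for 3 to 6, salinity with low phosphate for 2 to 5, salinity with water deficit for 3 to 4 and water deficit with low phosphate for 1 to 2. The cause was not tested in any of these.

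Same-numbered 4-stress and 5-stress libraries did not deviate together (r of 0.040, −0.007 and −0.020 in leaf, −0.019 and −0.0098 in flower), so no pairing by number was seen between these groups within a tissue. Leaf and flower libraries of the same treatment and number were not compared in this way. The test of the flower effect minus the leaf effect treats them as independent. With the replicate number as a block, leaf cadmium on 4 stresses raised 61 and lowered 20, flower cadmium 0 and 1, the difference was above 0 for 16 and below for 40, and no other count moved by over 1.5 times. Read totals are not held, so counting error per gene is unknown, and values under about 1 FPKM carry libraries at 0.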
